A study of Mus musculus with 2 samples.

Results

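The cells described here were Malat1-negative cells of the mouse retina that held complement C1q transcripts and at most 1 transcript of 4 homeostatic microglial genes. They were selected on their own measured counts. A cell was taken when at most 20% of its UMIs were mitochondrially encoded, it held at least 1000 UMIs in all, C1qa, C1qb and C1qc summed to at least 5 UMIs, Malat1 was at 0 UMIs, and P2ry12, Tmem119, Siglech and Cx3cr1 summed to 0 or 1 UMI. A UMI, or unique molecular identifier, marks 1 captured RNA molecule. These members numbered 129 of the 2708 cells in both libraries, and 119 of the 129 came from the retinopathy library.

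The study profiled retinal cells of C57BL/6j mice at postnatal day 17, sorted for CD11b and F4/80, surface proteins of microglia and macrophages, with droplet-based single-cell RNA-seq (10x 3′ chemistry). The room air (RA) group held control pups, and the OIR group held pups with oxygen-induced retinopathy, a model in which high oxygen prunes the growing retinal vessels and the return to room air is followed by tufts of new vessels. Retinas were pooled, no genotype other than the strain and no drug is named for either group, and each group was 1 library. The RA library held 1449 cells and 12810892 UMIs, and the OIR library held 1259 cells and 9835402 UMIs. With 1 library per condition there is no replicate error, so no test was run: levels are UMIs per 1000000 UMIs of the summed cells (CPM), and every interval is a 95% interval for counting error only. A gene is called higher or lower when its ratio passed 2-fold.

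Microglia are the resident macrophages of the retina. P2ry12, a purinergic receptor, Cx3cr1, the fractalkine receptor, Tmem119 and Siglech mark them at rest and are lost as they become activated. Malat1 is a long noncoding RNA held in nuclear speckles. The transcription factor Nrf2 drives genes for heme breakdown, iron storage and peroxide removal, and HIF-1 drives glycolytic genes under low oxygen. Macrophages at the borders of the nervous system share C1q with microglia but carry Pf4, Mrc1 and Ms4a7.

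The C1q cells, 929 in RA and 876 in OIR, were divided by the same rule into 3 groups. Members made up 1.08% of them in RA (10 cells, exact binomial interval 0.517 to 1.97%) and 13.6% in OIR (119 cells, 11.4 to 16.0%). Malat1-negative cells that kept 2 or more homeostatic UMIs, called homeostatic Malat1-negative cells below, made up 3.34% in RA (31 cells) and 14.5% in OIR (127 cells). Malat1-positive cells were the remaining 888 and 630. Under counting error alone the members' intervals in RA and OIR do not overlap, but the spread between mice or sorts was not measured. No barcode was shared between the libraries, and none of the 6 cells that Scrublet called as doublets was a member.

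Members were shallow cells. Their UMIs per cell ran from 1787 to 8096 in RA (median 3204) and from 1000 to 6422 in OIR (median 2118), against medians of 10544.5 and 10057.5 in Malat1-positive cells. The median number of genes per cell was 1070.5 in RA members and 903 in OIR members, against 2934.5 and 2906.5 in Malat1-positive cells. With every cell thinned to 1000 UMIs, the median was 471.5 and 551 genes in members against 592 and 601 in Malat1-positive cells. Of the Malat1-positive cells thinned to 1000 UMIs, 11 of 888 in RA (1.24%, 0.620 to 2.21%) and 12 of 630 in OIR (1.90%, 0.988 to 3.30%) met the rule. The thinned depth of 1000 UMIs lay below every RA member (1787 or more) and at the lowest OIR member. These counts are therefore not like for like with the 10 RA and 119 OIR members. The part of depth in meeting the rule was not tested. The median share of mitochondrial UMIs was 6.76% in RA members and 2.52% in OIR members, and 4.2% and 4.76% in Malat1-positive cells.

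**Figure D1:**
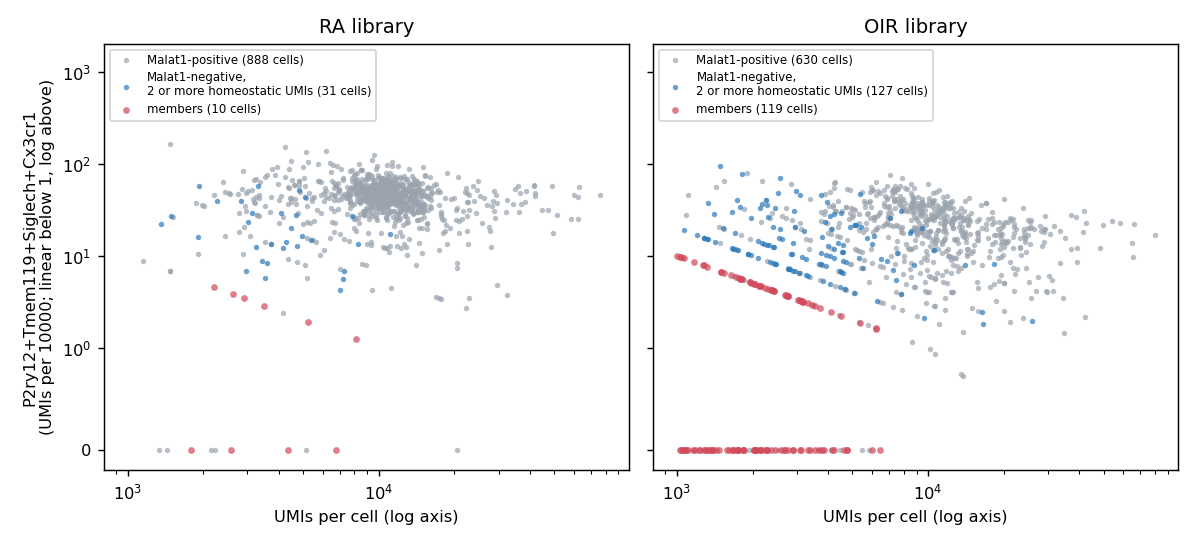
UMIs per cell (log axis) against homeostatic UMIs per 10000 UMIs of the cell, for each C1q cell of the RA and OIR libraries. Members (red) lie at 0 or on the line of 1 UMI by the rule, with medians of 3204 and 2118 UMIs, to the left of most Malat1-positive cells (grey), whose medians were 10544.5 and 10057.5.

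The 6 genes that mark these cells, Fabp5, Prdx1, Hmox1, Lgals3, Gclm and Ftl1, are described below. Their summed level fell steadily across the homeostatic limit in OIR. It was also lower outside the limit than within it in RA, but unevenly and among few cells. Most marker UMIs of the RA members came from 2 cells. In OIR, their summed level was 87694 CPM in the 66 cells with 0 homeostatic UMIs and 71338 CPM in the 53 cells with 1. Just outside the rule it was 65040 CPM in the 34 cells with 2 and 49523 CPM in the 21 cells with 3. In RA it was 39105, 48554, 25463 and 9364 CPM in the 4, 6, 2 and 5 cells with 0, 1, 2 and 3 homeostatic UMIs, and 14101 CPM in the 24 with more. At the UMI limit in OIR it was 41705 CPM in the 14 members closest above it and 19241 CPM in the 4 cells closest below. At the Malat1 limit in RA it was 27039 CPM in 1 otherwise matching cell with 1 Malat1 UMI. It was 8045 CPM in 4 cells with 2 or 3 and 5809 CPM in 5 with 4 or more. In OIR it was 25976 CPM in 5 otherwise matching cells with 1 Malat1 UMI. It was 127238 CPM in 2 cells with 2 or 3 and 31536 CPM in 16 with 4 or more. The 6 members with 5 to 9 C1q UMIs stood at 68061 CPM, while the 8 cells with 1 to 4 C1q UMIs stood at 2348 CPM and held 126181 CPM of rod photoreceptor genes.

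Members with few UMIs of a list of macrophage genes mostly had larger shares of the 6 marker genes, but the ranges overlapped. Whether the members form separate kinds of cell was not tested. In OIR, 56 members held 0 UMIs of the 13 macrophage genes, 18 held 1 or 2, 15 held 3 to 9 and 30 held 10 or more. The 6 markers took a median of 9.93% of the UMIs in the first set (0.646 to 23.3%) and 12.8% in the second (1.03 to 23.9%), but 1.89% in the third (1.08 to 18.7%) and 1.61% in the fourth (0.565 to 4.84%). Cells with at least 10% of their UMIs in the 6 markers numbered 28 of 56, 12 of 18, 3 of 15 and 0 of 30 in these sets. Pf4, a platelet-factor chemokine of border macrophages, had a UMI in all 30 cells of the fourth set. With every cell thinned to 1000 UMIs, Pf4 was seen in 26.9% of OIR members, 15.4% of OIR Malat1-positive cells and 0.667% of OIR rods, which should lack it. Microglial genes outside the rule summed to 23380, 22130, 14129 and 15896 CPM in the 4 sets. Across the 119 OIR members, Spearman's rank correlation between the marker share and the macrophage share was -0.45, and between the marker share and the mitochondrial share -0.46, as a description of cells of 1 library.

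In RA, 8 of 10 members held 3 or more macrophage UMIs, and 78.4% of their marker UMIs came from 2 cells. The same cut was passed by 45 of 119 OIR members (37.8%) and by 28.8% and 48.3% of the deeper Malat1-positive cells in RA and OIR. The name microglia was therefore not borne out for every member, and the 45 macrophage-marked OIR members are set apart below from the other 74. Medians of the mitochondrial share were 4.94% and 1.73% in these sets, and their part in the differences between the sets was not tested.

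The 6 genes named for these cells were all higher in OIR members than in OIR Malat1-positive cells, as the choice of the cells from earlier results made likely. Hmox1, heme oxygenase 1, which opens the heme ring and frees its iron, stood at 11529 CPM (11139 to 11930) in OIR members, 7094 CPM in homeostatic Malat1-negative cells and 2050 CPM in Malat1-positive cells. In RA the same levels were 1999 CPM (1585 to 2488), 1183 CPM and 1467 CPM, so Hmox1 was far from even between the libraries. Ftl1, the ferritin light chain that stores iron, stood at 58276 CPM in OIR members, 35223 CPM in homeostatic Malat1-negative cells and 11567 CPM in Malat1-positive cells, and at 36681, 11974 and 7049 CPM in RA. Prdx1, a peroxidase that clears hydrogen peroxide, stood at 6284 CPM (5997 to 6581) in OIR members and 830 CPM in Malat1-positive cells, and at 3748 and 335 CPM in RA. Gclm, a subunit of the enzyme that starts glutathione synthesis, stood at 766 CPM (668 to 874) against 112 CPM in OIR, and its 9 UMIs in RA members were too few for a ratio by the rule used here.

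Fabp5, a fatty acid carrier, stood at 1028 CPM (914 to 1153) in OIR members, 471 CPM in homeostatic Malat1-negative cells and 124 CPM in Malat1-positive cells. In RA the levels were 800 CPM (547 to 1129), 58.4 CPM and 32.8 CPM, but 22 of the 32 UMIs lay in 1 cell. Lgals3, galectin 3, a sugar-binding protein of phagocytes, stood at 2196 CPM (2028 to 2375), 897 CPM and 383 CPM in OIR and at 1449 CPM (1100 to 1874), 58.4 CPM and 51.2 CPM in RA. In every one of these genes the order of the 3 OIR groups was the same, with homeostatic Malat1-negative cells between the others. The log2 ratio of OIR members over Malat1-positive cells was 3.05 for Fabp5 (2.86 to 3.24), 2.92 for Prdx1 (2.85 to 3.0), 2.78 for Gclm (2.56 to 2.99), 2.52 for Lgals3 (2.39 to 2.64), 2.49 for Hmox1 (2.44 to 2.55) and 2.33 for Ftl1 (2.31 to 2.36). In RA it was 4.82 for Lgals3, 4.61 for Fabp5, 3.48 for Prdx1, 2.38 for Ftl1 and 0.45 for Hmox1 (0.11 to 0.76).

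**Figure D2:**
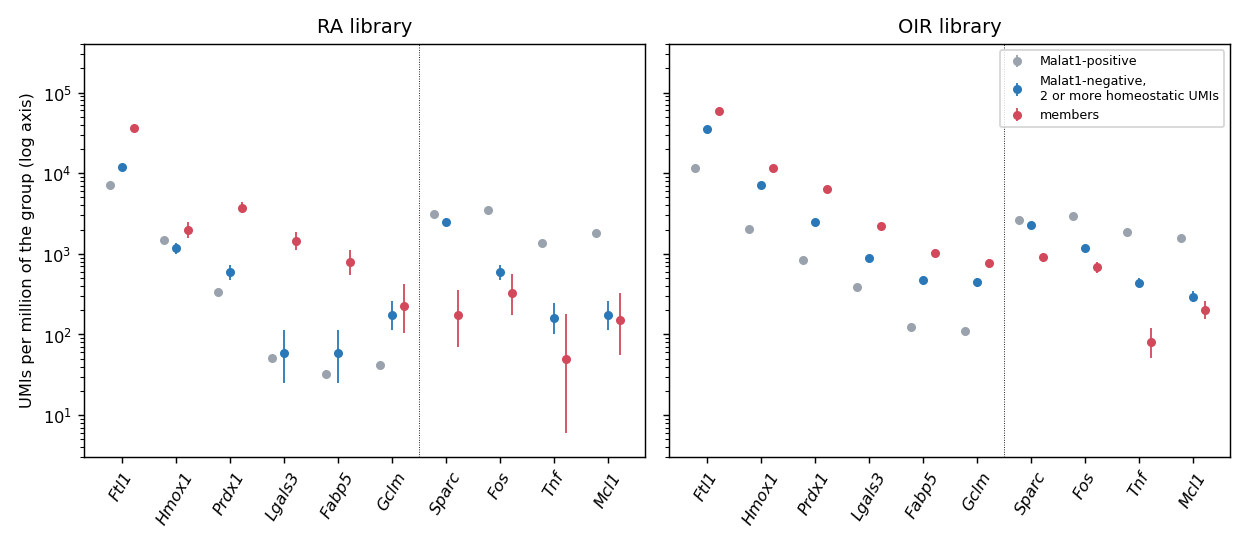
Levels of 10 genes (CPM, log axis) in Malat1-positive cells, homeostatic Malat1-negative cells and members of each library, with 95% Poisson intervals. The 6 marker genes left of the dotted line are highest in members in OIR (Prdx1 6284 against 830 CPM), and Sparc, Fos, Tnf and Mcl1 to its right are lowest there (Tnf 80.4 against 1885 CPM).

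At equal depth more members than Malat1-positive cells had a UMI of these genes. With every cell thinned to 1000 UMIs, Prdx1 was seen in 86.6% of OIR members and 47.5% of OIR Malat1-positive cells, Lgals3 in 52.1% and 15.2%, Fabp5 in 34.5% and 8.41%, Gclm in 29.4% and 6.98%, and Hmox1 in 60.5% and 45.7%. Homeostatic Malat1-negative cells lay between them for Prdx1 (60.6%), Lgals3 (22.8%), Fabp5 (18.9%) and Gclm (15.0%) but not for Hmox1 (40.2%). Ftl1 was seen in nearly all cells, 100% of members and 98.9% of Malat1-positive cells. In the 150 OIR rod photoreceptor cells, a class outside the myeloid lineage that had a median of 1911.5 UMIs before thinning against 2118 in members, the shares were 12% for Prdx1, 0.667% for Lgals3, 1.33% for Fabp5, 5.33% for Gclm and 0.667% for Hmox1. Prdx1 and Gclm are broadly expressed genes, so rods are no clean background for them. All 6 genes had a UMI in 20 of 119 thinned OIR members (16.8%; 31 of 119 before thinning), 2 of 630 Malat1-positive cells (0.317%; 92 before thinning) and 0 of 150 rods (1 before thinning).

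The 6 genes were far higher in the 74 OIR members with under 3 macrophage UMIs than in the other 45. In the 74 cells Hmox1 stood at 17493 CPM, Ftl1 at 80830 CPM, Prdx1 at 9177 CPM, Lgals3 at 3396 CPM, Fabp5 at 1582 CPM and Gclm at 1178 CPM. In the 45 macrophage-marked members the same genes stood at 2376, 23659, 1844, 355, 177 and 133 CPM. Against OIR Malat1-positive cells, the median log2 ratio of the 6 genes was 3.27 in the 74 cells and 0.38 in the 45, where Prdx1 and Ftl1 were the 2 genes past 2-fold. In RA, whose 8 macrophage-marked members held 1 cell with 12.7% of its UMIs in the 6 genes, Ftl1 stood at 33715 CPM in the 8 cells and 50649 CPM in the other 2.

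Of all genes compared between OIR members and OIR Malat1-positive cells (3399 genes), 7.21% were at least 2-fold higher and 25.5% at least 2-fold lower, with a median log2 ratio of -0.02. Of 32 Nrf2 target genes, 22 were compared, 13 were higher and 2 lower, with a median of 1.68. Beside the genes above, Fth1, the ferritin heavy chain, stood at 49646 CPM against 10645 CPM, Slc48a1, which carries heme out of the lysosome, at 542 CPM against 75.1 CPM (log2 ratio 2.85, 2.59 to 3.11), and Blvrb, a biliverdin reductase, at 797 CPM against 210 CPM. The 2 lower genes were Slc7a11, the cystine importer, at 14 CPM against 144 CPM, and Gclc, the catalytic partner of Gclm, at 24.5 CPM against 64.9 CPM. Nfe2l2, the gene of Nrf2 itself, stood at 122 CPM in OIR members and 466 CPM in Malat1-positive cells, and at 50 CPM (2 UMIs) and 332 CPM in RA. Of the iron handling genes compared, 12 in number, 5 were higher, all of them also on the Nrf2 list, and 1, the iron oxidase Cp, was lower. The summed level of the Nrf2 list was 186880 CPM in the 74 OIR members with under 3 macrophage UMIs, 50252 CPM in the 45 with more, and 28243 CPM in Malat1-positive cells. In RA members 9 of 12 Nrf2 genes compared were higher and 1 lower (median 2.75), where 28% of all 738 genes compared were higher and 30.4% lower (median 0.42), and 74.9% of their Nrf2-list UMIs lay in 2 cells.

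The promoters of the Nrf2 genes were searched for the antioxidant response element core that Nrf2 binds, TGACNNNGC, on either strand, in the 300 bases from 250 before to 50 after each start in RefSeq (GRCm38.p6, the assembly of mm10). Of the 32 list genes 24 had a window and 11 of these held the core (45.8%), where 3781 of 27025 genes did (14%). Of the 13 list genes that were 2-fold higher in OIR members, 9 had a window and 2 held the core (22.2%), Prdx1 and Gclm. Their cores are printed in capitals with 30 bases on each side, since these are the 2 marker genes on the Nrf2 list whose window held the letters searched. Windows of the markers outside that list, Fabp5 and Lgals3, are not reported here. Both carry it on the opposite strand. The Prdx1 stretch is chr4:116685436-116685504 on the plus strand, with its core starting 133 bases before the gene's start, and the Gclm stretch is chr3:122245393-122245461 on the plus strand, with its core starting 134 bases before.
Prdx1: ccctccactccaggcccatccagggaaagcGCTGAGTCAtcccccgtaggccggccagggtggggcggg
Gclm: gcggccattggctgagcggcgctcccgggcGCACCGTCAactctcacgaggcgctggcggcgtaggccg
A match describes these letters only, and elements farther from the start were not searched.

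Glycolytic genes were also higher in OIR members than in OIR Malat1-positive cells, 8 of 13 compared past 2-fold and none lower, with a median log2 ratio of 1.43. Of all genes compared there, 7.21% were higher and 25.5% lower. Pkm, pyruvate kinase, which makes the last ATP of glycolysis, stood at 2413 CPM (2236 to 2600) against 803 CPM. Aldoa, which splits fructose bisphosphate, stood at 1818 CPM against 589 CPM, Tpi1 at 979 against 311 CPM and Gapdh at 6141 against 2280 CPM. In homeostatic Malat1-negative cells the levels were 2130 CPM for Pkm, 1507 CPM for Aldoa, 675 CPM for Tpi1 and 5249 CPM for Gapdh, close to those of members. The 3 genes of the list under 0 were the glucose transporter Slc2a1 at a log2 ratio of -0.98, hexokinase Hk2 at -0.69 and the lactate exporter Slc16a3 at -0.60. Of the other HIF targets compared, 5 of 8 were higher and 1 lower. Bnip3, a mitophagy receptor, stood at 269 CPM against 75.3 CPM, the cytokine Mif at 437 against 117 CPM, and P4ha1, a collagen hydroxylase, at 17.5 against 83.5 CPM. As with the Nrf2 genes, the 74 members with under 3 macrophage UMIs carried the difference, with Pkm at 3448 CPM and Bnip3 at 398 CPM against 824 and 70.9 CPM in the 45 others. In RA members, Pkm stood at 575 CPM and Aldoa at 400 CPM. In RA 2 of 5 glycolytic genes compared were higher in members than in Malat1-positive cells, where 28% of all genes were higher.

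Genes of the activated and secretory kind followed in part in OIR, where 7.21% of all genes compared were higher and 25.5% lower. Igf1, insulin-like growth factor 1, named after its values were seen, stood at 566 CPM (483 to 661) in OIR members, 246 CPM in homeostatic Malat1-negative cells and 127 CPM in Malat1-positive cells, and after thinning was seen in 37.0% of members, 8.57% of Malat1-positive cells and 0 of 150 rods. In RA it stood at 175 CPM (70.3 to 360) in members and 34.6 CPM in Malat1-positive cells. Spp1, osteopontin, a secreted adhesion protein, stood at 1584 CPM against 338 CPM in OIR, but 29 of 119 members had a UMI and 70.6% of the UMIs lay in 5 cells. Mmp12, macrophage elastase, was seen in 13 OIR members, at 287 CPM against 33.2 CPM, and was at 0 UMIs in the 45 macrophage-marked ones. Of 28 disease-associated microglia genes compared, 10 were higher and 2 lower in OIR members (median 0.55). The median was 0.73 in the 74 members with under 3 macrophage UMIs and -0.10 in the 45 others. Of 20 compared in RA members 12 were higher and 0 lower (median 1.67), where 28% of all genes were higher. Of 32 lysosomal genes compared in OIR members, 1 was higher, Cstb, an inhibitor of cathepsins (395 against 124 CPM), and 3 were lower (median -0.32). Ctsd, the main acid protease, stood at 9851 CPM against 7126 CPM. In RA members 5 of 24 were higher and 2 lower (median 0.49), where 28% of all genes were higher and 30.4% lower. Apoe, the lipid carrier, was level, at 22940 CPM in OIR members and 23649 CPM in OIR Malat1-positive cells.

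Further lists were mixed or had few genes past 2-fold in OIR, where 7.21% of all genes compared were higher and 25.5% lower. Of 17 lipid handling genes compared in OIR, 1, Fabp5, was higher and 4 were lower (median 0.16), among them Abca1, a cholesterol exporter, at 38.5 against 183 CPM. The lipid droplet protein Plin2, at 549 against 279 CPM, was just short of 2-fold. Of 22 matrix and secreted genes 6 were higher and 7 lower (median -0.60), and of 23 actin and membrane genes 5 were higher (median 0.52), with Capg, an actin-capping protein, at 423 against 139 CPM. Proteasome subunits were higher in 5 of 36 and lower in 0 (median 0.66), with Psmb5, a catalytic subunit, at 500 against 200 CPM. Chaperones were lower in 3 of 15 (median -0.31), and apoptosis and p53 genes were higher in 1 and lower in 4 of 11 (median 0.22). Redox enzymes outside the Nrf2 list were higher in 3 and lower in 3 of 21 (median 0.54), and proton pump subunits of the lysosome higher in 2 of 13 (median 0.03). In RA members lipid handling genes were higher in 5 of 7 (median 2.80) and proteasome subunits in 9 of 10 (median 1.39), with 0 lower in each, where 28% of all genes were higher. Among the genes with the largest ratios of all in OIR were Afp, alpha-fetoprotein (66.4 against 7.37 CPM), and at the other end Kdm6b, a histone demethylase (10.5 against 444 CPM, log2 ratio -5.40), and Ccnl1, a nuclear cyclin (17.5 against 399 CPM).

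Nuclear-retained RNAs other than Malat1 were low, and Neat1 and Kcnq1ot1 were at or near 0. Neat1, the RNA scaffold of nuclear paraspeckles, had 1 UMI in all 119 OIR members (3.50 CPM, 0.0885 to 19.5) and 0 in the 10 RA members, where the Poisson interval reaches 92.2 CPM and 3 UMIs would be 75 CPM, against 1353 and 1497 CPM in Malat1-positive cells. In homeostatic Malat1-negative cells it stood at 9.17 CPM in OIR and 0 in RA. Kcnq1ot1, an imprinted noncoding RNA, was at 0 UMIs in OIR members and 157 CPM in OIR Malat1-positive cells. Of 9 nuclear-retained RNAs outside the rule that were compared in OIR, all were lower in members (median -2.91), and 8 of 9 were lower in homeostatic Malat1-negative cells (median -2.27; 23.2% of the 3262 genes compared there were lower and 1.96% higher). The median was -2.67 in the 74 members with under 3 macrophage UMIs and -2.56 in the 45 others, where 8 of 9 were lower. Ddx5, an RNA helicase gene on the list, was still seen, at 570 CPM in OIR members against 1438 CPM in Malat1-positive cells and at 550 against 2228 CPM in RA.

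Transcripts of short-lived immediate early genes were low in the same cells. All 28 compared were lower in OIR members (median -2.72) and all 24 in RA members (median -3.20). Fos, a subunit of the AP-1 transcription factor, stood at 678 CPM (586 to 781) in OIR members, 1164 CPM in homeostatic Malat1-negative cells and 2934 CPM in Malat1-positive cells, and in RA at 325 CPM (173 to 555), 591 CPM and 3488 CPM. Junb, its partner, stood at 892, 1437 and 4867 CPM in OIR and 99.9, 570 and 5946 CPM in RA. Zfp36, which destabilises cytokine mRNAs, stood at 161 against 1950 CPM in OIR. The list was as low in the 74 OIR members with under 3 macrophage UMIs (median -2.63) as in the 45 others (-2.70). It was also low in homeostatic Malat1-negative cells, with 27 of 28 lower (median -2.11).

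Cytokine and NF-kB feedback genes were low too, 27 of 31 compared in OIR (median -2.97) and 17 of 21 in RA (median -3.02). In RA 2 genes were higher in members, Ccl7, a monocyte chemokine named after its value was seen (1899 against 624 CPM), and Cxcl16 (350 against 144 CPM), while in OIR Ccl7 stood at 615 against 1558 CPM and none was higher. Tnf, tumour necrosis factor, stood at 80.4 CPM (51.0 to 121) in OIR members, 436 CPM in homeostatic Malat1-negative cells and 1885 CPM in Malat1-positive cells. After thinning it was seen in 9.24% of OIR members, 61.1% of Malat1-positive cells and 0 of 150 rods, where 3 counts would be 2% of the cells, a limit on cells with a UMI at this depth and not on expression. The chemokine Ccl4 stood at 671 against 5250 CPM in OIR and 1449 against 8385 CPM in RA, where 47 of the 58 UMIs lay in 1 member. Icam1, an adhesion molecule induced by NF-kB, stood at 28.0 against 669 CPM in OIR, and Mcl1, a survival protein with a short-lived mRNA, at 203 against 1592 CPM. Ccl12 (486 against 765 CPM), Ccl9 (203 against 174 CPM) and Cxcl16 (238 against 258 CPM) were the genes of the list nearest to even in OIR.

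Microglial genes that the rule did not use were lower as well. Of 29 compared in OIR, 19 were lower and none higher (median -1.29), and of 20 in RA 16 were lower (median -1.60). Sparc, a matrix protein of resting microglia, stood at 909 CPM in OIR members, 2248 CPM in homeostatic Malat1-negative cells and 2629 CPM in Malat1-positive cells, and at 175, 2475 and 3098 CPM in RA. Mertk, an engulfment receptor, stood at 10.5, 31.2 and 164 CPM in OIR. Cst3, cystatin C, at 5539, 12165 and 9111 CPM, did not pass 2-fold against Malat1-positive cells. Some were near even, with Fcrls at 1304 against 1468 CPM and Bin1 at 615 against 689 CPM in OIR members and Malat1-positive cells. Of the sort's own antigens, Itgam (CD11b) stood at 90.9 CPM in OIR members and 422 CPM in Malat1-positive cells, and Adgre1 (F4/80) at 269 and 352 CPM. Tyrobp, the signalling adaptor of myeloid receptors, stood at 1367 and 1068 CPM, and C1qa, used by the rule, at 6025 and 8293 CPM. The leukocyte gene Ptprc (CD45) stood at 69.9 and 297 CPM.

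Ratios to Malat1-positive cells followed transcript length. Annotated lengths (the longest coding transcript, matched by symbol) were found for 92.8% of the genes compared in OIR. The median log2 ratio of members over Malat1-positive cells was 0.55 in the shortest of 4 length bins (297 to 1526 bases), 0.22 and -0.33 in the middle bins and -1.24 in the longest (3926 to 23407 bases). Lower genes made up 4.07% of the shortest bin and 58.0% of the longest. Spearman's rank correlation across the 3153 genes was -0.58, and genes are not independent replicates. The same slope ran from 0.43 to -1.07 in homeostatic Malat1-negative cells, and from 1.0 to -1.90 in RA members, while members over homeostatic Malat1-negative cells ran only from 0.13 to -0.07. Less the median of each gene's own length bin, the list medians in OIR were 2.38 for the 6 markers, 1.23 for the Nrf2 genes, 1.10 for glycolysis, -2.59 for immediate early genes, -2.80 for cytokines and -1.07 for microglial genes. No such value is given here for the nuclear-retained RNA list, lower in 9 of 9 as measured (median -2.91). The part of transcript length in its ratios was not tested. The nuclear respiratory chain list, 0.74 as measured with 20 of 72 higher, came to 0.31, and the cytosolic ribosomal protein list, 0.39 with 1 of 80 higher, to -0.15. In RA the nuclear respiratory chain list was 1.43 as measured, with 39 of 44 higher, where 28% of all genes were higher. Less the bin medians it came to 0.58.

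**Figure D3:**
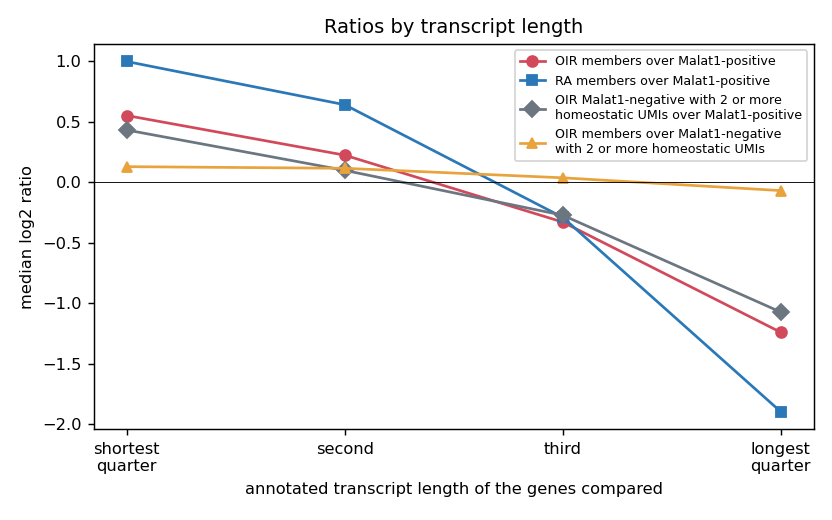
Median log2 ratio of the genes compared, in 4 bins of annotated transcript length with about equal gene numbers. Ratios of Malat1-negative cells over Malat1-positive cells drop from the shortest to the longest bin (0.55 to -1.24 in OIR members), and those of OIR members over homeostatic Malat1-negative cells stay between 0.13 and -0.07.

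Against the homeostatic Malat1-negative cells of the same library, which share the absence of Malat1, OIR members differed less. Of 2783 genes compared, 5.75% were higher and 4.99% lower. Other cell types' markers and interferon response genes differed as well. Red blood cell genes were lower in 4 of 4 (median -3.47), with 1497 of the 1539 UMIs of the homeostatic Malat1-negative cells in 1 cell. Rod genes were higher in 8 of 8 (median 2.61), with 294 of 337 UMIs in 1 member. Interferon genes were higher in 7 of 9 (median 1.25). Against OIR Malat1-positive cells, 8 of 10 interferon genes were higher in the 45 macrophage-marked members and 0 of 6 in the other 74. All genes compared were higher in 18.7% and 8.34% there. The part of these lists in the other differences was not tested. The 6 markers had a median log2 ratio of 0.95, with Prdx1 at 1.33 (1.23 to 1.44), Lgals3 at 1.29 and Fabp5 at 1.13 past 2-fold and Gclm at 0.78, Ftl1 at 0.73 and Hmox1 at 0.70 short of it. Of 20 Nrf2 genes compared 4 were higher and none lower (median 0.68), while 0 of 12 glycolytic genes were higher and 1 lower (median 0.25). Microglial genes outside the rule were lower in 15 of 27 (median -1.12), with Cst3 at -1.14. Immediate early genes were lower in 4 of 23 and higher in 1 (median -0.69), and cytokine and NF-kB feedback genes were lower in 4 of 22 and higher in 2 (median -0.47), with Tnf at -2.44 (-3.13 to -1.82). All 11 macrophage genes compared were higher in members (median 2.52), among them Pf4 (815 against 117 CPM) and Ms4a7 (350 against 47.7 CPM). Cd209f, a lectin of border macrophages, stood at 136 CPM against 0 UMIs, a log2 ratio of at least 4.63 against 3 UMIs. The comparator cells here were chosen for 2 or more homeostatic UMIs, and the part of that choice was not tested. Against OIR Malat1-positive cells, 1 of 12 macrophage genes was higher in members and 0 lower (median 0.19). In homeostatic Malat1-negative cells 10 of 10 were lower than in Malat1-positive cells (median -2.10).

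The 45 macrophage-marked OIR members were also set against the other 74. Of 2033 genes compared between them, 21.8% were higher in the 45 and 7.87% lower. Rod genes were higher in 8 of 8 (median 3.80), with 294 of the 311 UMIs in 1 of the 45 cells, and mitochondrially encoded genes were over 0 in 11 of 11 (median 0.79). By the way they were set apart all 11 macrophage genes compared were higher. Interferon response genes were higher in 9 of 10, with Ifi27l2a at 1046 against 46.2 CPM, the antiviral membrane protein Ifitm3 at 798 against 80.9 CPM and Bst2, tetherin, at 816 against 179 CPM. Cell cycle genes were higher in 13 of 17 (median 1.61), with Stmn1, a microtubule regulator, at 1055 against 347 CPM and Hmgb2 at 674 against 150 CPM. The histone H2afz, at 1613 against 1051 CPM, did not pass 2-fold. The proliferation marker Mki67 stood at 44.3 and 28.9 CPM, under the 162 CPM of OIR Malat1-positive cells. Nrf2 genes were lower in 15 of 20 and glycolytic genes in 11 of 12 (medians -1.82 for each). Apoe stood at 33117 against 16309 CPM and Lyz2 at 2491 against 820 CPM. Against OIR Malat1-positive cells, where 18.7% of 2326 genes were higher and 21.2% lower, the 45 cells had 8 of 10 interferon genes and 10 of 19 cell cycle genes higher. The other 74, for which 8.34% of 3009 genes were higher and 30.3% lower, had none of 6 interferon genes higher and 4 lower.

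Between conditions, OIR members were set against the 10 RA members, and the values of Malat1-positive cells are given beside them. The members differed in makeup, with 3 or more macrophage UMIs in 8 of 10 in RA and 45 of 119 in OIR. Among these macrophage-marked cells alone Hmox1 stood at 1787 CPM in RA and 2376 CPM in OIR, Pkm at 606 and 824 CPM, and Gapdh at 2544 and 2952 CPM. Of 675 genes compared, 16.9% were higher in OIR and 22.2% lower. Glycolytic genes were higher in 8 of 9 (median 2.19), with Aldoa at a log2 ratio of 2.19 (1.47 to 3.0), Pkm at 2.07 (1.47 to 2.74) and Gapdh at 1.27 (0.98 to 1.57). Malat1-positive cells differed in the same direction, from 271 to 589 CPM for Aldoa, 280 to 803 CPM for Pkm and 715 to 2280 CPM for Gapdh. Hmox1 differed by 2.53 (2.21 to 2.87) between the members and stood at 1467 and 2050 CPM in RA and OIR Malat1-positive cells. Fabp5, at 0.36 (-0.17 to 0.94), did not differ beyond counting error, but most of its 32 UMIs in RA members lay in a single cell. Between OIR and RA Malat1-positive cells Fabp5 differed by 1.92. Ftl1 differed by 0.67 between the members and 0.71 between Malat1-positive cells. Nuclear respiratory chain genes were lower in 29 of 46 (median -1.32), against 23 of 71 between OIR and RA Malat1-positive cells (median -0.23). Cytosolic ribosomal protein genes were lower in 53 of 79 (median -1.43), with Rps27 at 346 CPM in OIR and 2898 CPM in RA members, and 351 and 2359 CPM in Malat1-positive cells of the same libraries. Class II antigen presentation genes were lower in 5 of 5 (median -4.09). Cd74, the invariant chain, stood at 483 CPM in OIR members and 8246 CPM in RA members, but 80.0% of the list's UMIs in RA members lay in 2 cells, and Malat1-positive cells stood at 744 and 702 CPM. Of the 731 genes compared with Malat1-positive cells in both libraries, 57 were higher in OIR members and 200 in RA members, with 50 in both (87.7% of the OIR and 25% of the RA genes). Of the lower genes, 195 and 224, 185 were shared (94.9% and 82.6%).

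**Figure D4:**
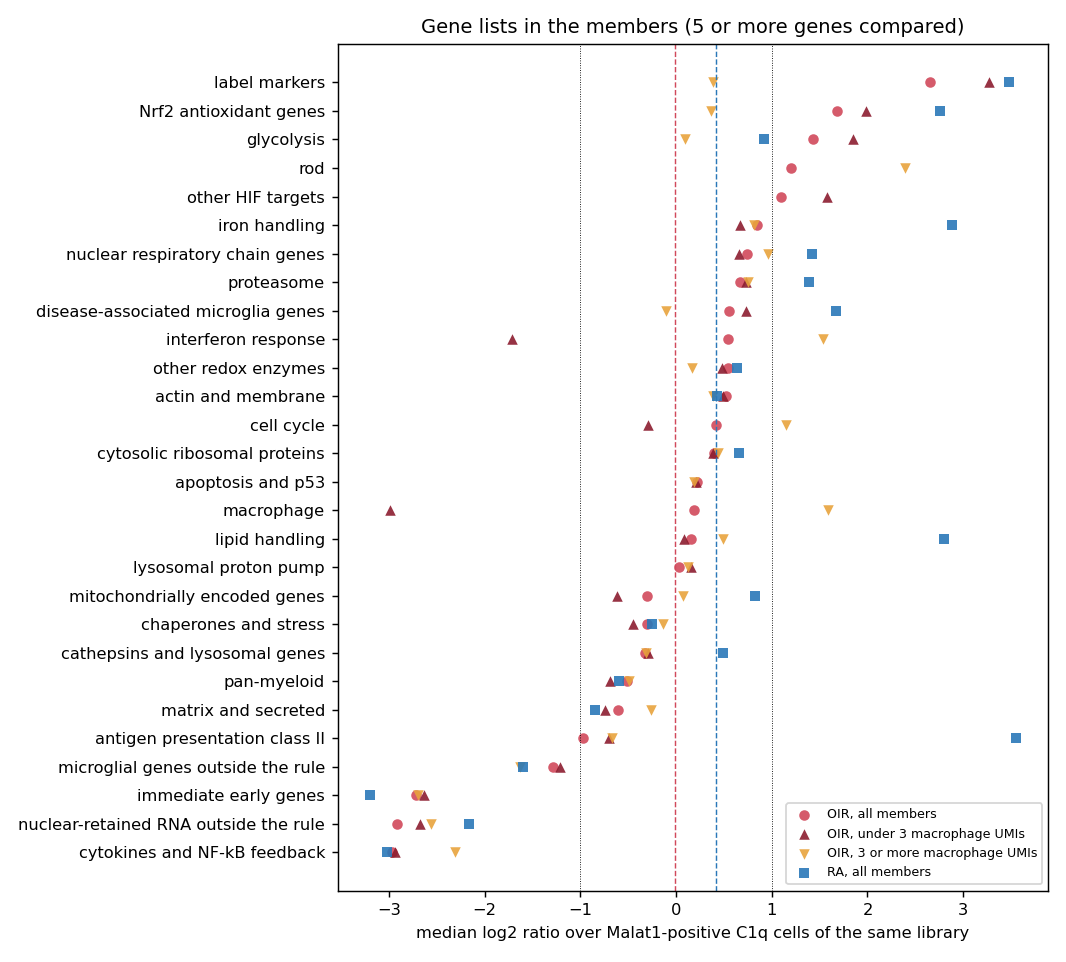
Median log2 ratio of each gene list, members over Malat1-positive C1q cells of the same library, for all OIR members, OIR members with under 3 or with 3 or more macrophage UMIs, and RA members. Dashed lines mark the median of all genes compared (-0.02 in OIR and 0.42 in RA). Nrf2 and glycolytic genes lie to the right in OIR members with under 3 macrophage UMIs (1.98 and 1.85), interferon genes in those with more (1.54), and immediate early genes to the left throughout.

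Markers of other cell types were few. Of the monocyte list OIR members held 2 UMIs in all, both of Fn1, with Ccr2 and the other 8 genes at 0. Of the neutrophil list they held 7 UMIs with 8 of 10 genes at 0. Rod genes summed to 1178 CPM in OIR members and 621 CPM in OIR Malat1-positive cells, but 294 of the 337 UMIs lay in 1 macrophage-marked cell. Red blood cell genes came to 54 UMIs in 6 OIR members, 37 of them in 1 cell, and to 108 UMIs in RA members, all in 1 cell. Of the endothelial and pericyte list OIR members held 8 UMIs with 6 of 10 genes at 0, and of the cone list they held Gngt2 with the other 9 at 0. The lens list gave 41 UMIs with 10 of 12 genes at 0, its most abundant gene being Crybb1 (136 CPM), which microglia also carry. The Muller glia and astrocyte list was carried by Apoe, at 22940 of 24013 CPM. The other retinal neurons were marked by Uchl1, a ubiquitin hydrolase with 16 UMIs in 11 OIR members (56.0 CPM against 2.59 CPM in Malat1-positive cells), and 10 of the 14 genes were at 0.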

How the data were processed

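The authors aligned and counted the reads with Cell Ranger (3.1.0 per the matrix header, genome build mm10 per the labels, which also name Seurat 4.0) and deposited filtered matrices of raw UMI counts per gene and cell. From these counts, cells were chosen by the thresholds given above with pandas 2.3.3, numpy 2.4.6 and scipy 1.17.1 under Python 3.11.15. Scrublet, run through scanpy 1.11.5, marked doublets, which were kept, and called 0.276% of RA and 0.159% of OIR cells. The cells, gene lists and named genes were chosen with earlier results of these data known.

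The UMIs of a group of cells were added up per gene and scaled to 1000000. Levels carry exact Poisson intervals, shares exact binomial (Clopper-Pearson) intervals and ratios exact conditional intervals, all at 95% and covering counting error only. A gene was compared when the higher group reached 50 CPM and a level worth 10 UMIs in the smaller group. A group under 3 UMIs was set to 3 UMIs, which makes the ratio a bound. Ratios in members, who were chosen by their counts, are descriptions. The ratio code was checked on simulated counts. Named genes were those of the rule, the 6 markers, the 10 largest ratios each way in OIR, and in each list the 4 most abundant genes and the 3 largest ratios each way, with the 5 largest each way in the other comparisons. Igf1, Adgre1 and Ccl7 were named after their values were seen. Lists were summarised by counts past 2-fold and the median, with alternatives for each threshold, for depth and for the comparator.

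Transcript lengths came from GENCODE vM1, matched by symbol, with no coordinates used. Promoter sequences came from RefSeq on GRCm38.p6. Some genes of the lists are not reported here.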

Additional observations from a re-analysis of the deposited data

Results flagged for a closer look

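Class II antigen presentation genes had a median log2 ratio of members over Malat1-positive cells of 3.55 in RA and -0.97 in OIR, a difference of -4.53, and mitochondrially encoded genes one of 0.82 in RA and -0.31 in OIR, a difference of -1.13. Both drew attention because the members of the libraries stood on opposite sides of their own Malat1-positive cells. With 1 library per condition the difference was not tested. In RA, 80.0% of the class II UMIs of the members lay in 2 of 10 cells. The opposite sides were not kept under every alternative. The OIR class II median was 0.24 against shallow Malat1-positive cells with UMI totals near those of the members, and kept its sign in 15 of 17 alternatives. It was 0.31 with cells of 3 or more macrophage UMIs left out of members and Malat1-positive cells alike. With such cells left out of the members alone it was -0.71, with 0 of 6 genes over 0. The RA median of mitochondrially encoded genes was -0.04 against shallow Malat1-positive cells of RA, and kept its sign in 15 of 16.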

How the results depend on the processing

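The values rest on 1 library per condition, 10 RA members and shallow cells. No paired analysis was possible because each condition is 1 library and no test was run. Over 17 alternatives the OIR medians against Malat1-positive cells kept their sign for Nrf2 genes (1.51 to 2.36), immediate early genes (-2.90 to -2.44), cytokines (-3.30 to -2.63) and microglial genes (-1.66 to -1.08). The members' share of C1q cells was 0.431% in RA and 7.53% in OIR with a homeostatic sum of 0, 8.56% in OIR from 2000 UMIs, and 0.304% in RA without cells of 3 or more macrophage UMIs, an alternative chosen after seeing the data. That alternative, called without macrophage-marked cells below, left such cells out of the members and of the cells they were compared with. Genes at least 2-fold higher in OIR members than in Malat1-positive cells numbered 368 after thinning, 417 by the mean over cells and 78 from 200 CPM (245 as reported), and lower ones 188 from 200 CPM (868). In RA, higher genes numbered 80 with a homeostatic sum of 0, 48 after thinning, 120 with centred ratios and 53 without macrophage-marked cells (207), and lower ones 72, 49 and 44 in the first, second and last of these (224). Against homeostatic Malat1-negative cells, 25 were higher from 200 CPM (160), and 213 were lower by the mean over cells, 38 from 200 CPM and 234 without macrophage-marked cells (139). Between conditions, 69 were higher with a 10% mitochondrial limit, 31 with a homeostatic sum of 0, 28 after thinning, 52 without ribosomal and mitochondrial genes and 23 without macrophage-marked cells (114), and lower ones were 94, 72 and 65 with a homeostatic sum of 0, after thinning and without macrophage-marked cells (150). The nuclear RNA median in OIR was -2.16 from 200 CPM, and the Nrf2 median 2.36 without macrophage-marked cells. With such cells left out of the members alone, the Nrf2 median was 1.98. Rod genes, which rest on 1 cell, reversed against Malat1-positive cells to -2.73 with a homeostatic sum of 0 and -2.36 without macrophage-marked cells, and against homeostatic Malat1-negative cells to -1.79 with a sum of 0. Stricter limits left fewer cells or genes, and other causes were not tested.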
